A study of Mus musculus with 4 samples.

Results

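The 42 protein-coding genes described here were read in mouse bone marrow cells without shRNA and hardly at all in cells given an shRNA against lncRNA-COX2. They were chosen by their measured counts: each lies on an autosome or the X chromosome, had at least 1 CPM (reads scaled by the library's gene reads) in both libraries without shRNA, and had at most 3 reads in each library with shRNA. They are 0.423% of the 9924 coding genes that reached 1 CPM in both libraries without shRNA, out of 20169 coding genes on these chromosomes and 37681 gene IDs. A further 1 coding gene with such counts was left out by the rule, and 2 noncoding genes had such counts. The near absence of the 42 genes with shRNA is therefore how they were selected and is given as a description. The same rule with the shRNA states exchanged chose 32 genes.

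The cells were wild-type C57BL/6 bone marrow cells grown in DMEM with fetal bovine serum and supernatant of L929 cells, which secrete M-CSF and so drive macrophage growth. The 4 groups were cells with the shRNA and 100 nM Pam3Cys4, cells with the shRNA and no stimulus, cells without shRNA given 100 nM Pam3Cys4, and cells without shRNA and no stimulus. The titles give 5 h of stimulation. Each group had 1 library, so no difference was checked against replicates, and all intervals cover counting error only. The letters EV in the titles of cells without shRNA are not explained by the labels, so it is not known whether these cells held a control construct.

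Pam3Cys4 is a synthetic bacterial-type lipopeptide that macrophages sense through Toll-like receptor dimers containing TLR2, and it switches on inflammatory genes within hours. Lineage genes and developmental regulators such as the Hox, Zic and Iroquois families are either held open or kept silent in a differentiated cell, and their state is often passed on through cell division. Several of the 42 genes are best known from nervous system, kidney, liver or junction-forming cells rather than from macrophages.

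Gene reads numbered 59400238 and 65826838 in the libraries with shRNA (Pam3Cys4 and unstimulated), and 51979051 and 47385277 in those without (Pam3Cys4 and unstimulated). The 10 macrophage markers summed to 7978 and 7034 CPM with shRNA, against 8506 and 6575 CPM without shRNA, in the same order of stimulation, and 9 or more of the 10 were read in each library. After Pam3Cys4, 2 of 9 measured ones, Mertk and Fcgr1, were at least 2-fold higher with shRNA and 1, Itgam, lower (10.4% and 7.44% of all coding genes). Unstimulated, 2 of 9, Mertk and Mpeg1, were higher and 0 lower (8.16% and 6.65%). Mertk had 440 and 2585 reads with shRNA, against 55 and 256 without. The 11 granulocyte markers summed to at most 0.993 CPM in any library and the 6 B cell markers to at most 0.380 CPM. The 8 dendritic cell markers summed to 3.05 and 0.592 CPM with shRNA, against 26.0 and 7.75 CPM without. Itgax alone gave 24.1 and 5.19 CPM of the sums without shRNA, and Flt3, Clec9a, Ccr7 and Cd209a had 0 to 3 reads in any library. Zbtb46 had 11 and 14 reads with shRNA, against 54 and 102 without, and Siglech 1 and 1, against 4 and 7. Xcr1 had 80 and 7 reads with shRNA, against 35 and 10 without. The 5 megakaryocyte markers summed to 15.1 and 17.1 CPM with shRNA, against 213 and 153 CPM without, nearly all from Pf4, while 1 to 3 of the 5 had no read. The 7 T or NK cell markers summed to 11.9 and 14.6 CPM with shRNA, against 1.42 and 1.39 CPM without, and 5 or 6 of the 7 had no read. None of the 42 genes is among the 87 marker genes examined. The 4 Y-linked markers summed to 35.6 and 29.9 CPM with shRNA, against 0.212 and 0.148 CPM without, and 3 of the 4 were higher with shRNA while Eif2s3y had 0 and 0 reads with shRNA, against 6 and 3 without. The source of the cells and the presence of the shRNA therefore cannot be told apart in any difference between these libraries, and the part of the other marker lists in the choice of the 42 genes was not tested. In bulk libraries fewer cells of a type and less RNA per cell cannot be told apart either.

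Together the 42 genes held 25 and 43 reads in the libraries with shRNA (Pam3Cys4 and unstimulated), against 14875 and 16068 reads in those without. As CPM these sums were 0.421 and 0.653 with shRNA, against 286 and 339 without. With shRNA, 29 genes had no read after Pam3Cys4 and 22 had none unstimulated, and 21 had none in either library. A count of 0 allows up to 0.0505 CPM after Pam3Cys4 and 0.0456 CPM unstimulated, taking 3 reads as the limit. Of the others, 5 stood at the upper bound of 3 reads in both libraries, namely Iqgap2, Tfcp2l1, Ambp, Chn2 and Tnfrsf13b.

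Without shRNA the genes were low to moderate in level. Their CPM ranged from 1.06 to 48.3 after Pam3Cys4, with a median of 2.98, and from 1.03 to 56.3 unstimulated, with a median of 4.57. Only 6 genes reached 10 CPM in both libraries, Car12, Cers4, Stc2, Iqgap2, Zic2 and Tfcp2l1, and 14 stayed under 3 CPM in both. Per kilobase of exon (RPKM) the median was 0.657 after Pam3Cys4 and 1.01 unstimulated, against 6.65 and 7.53 RPKM over all coding genes with 1 CPM in both libraries. After Pam3Cys4 none of the 42 exceeded that overall median RPKM. Unstimulated, 1 did, the neural zinc finger factor Zic2 at 7.55 RPKM.

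**Figure D1:**
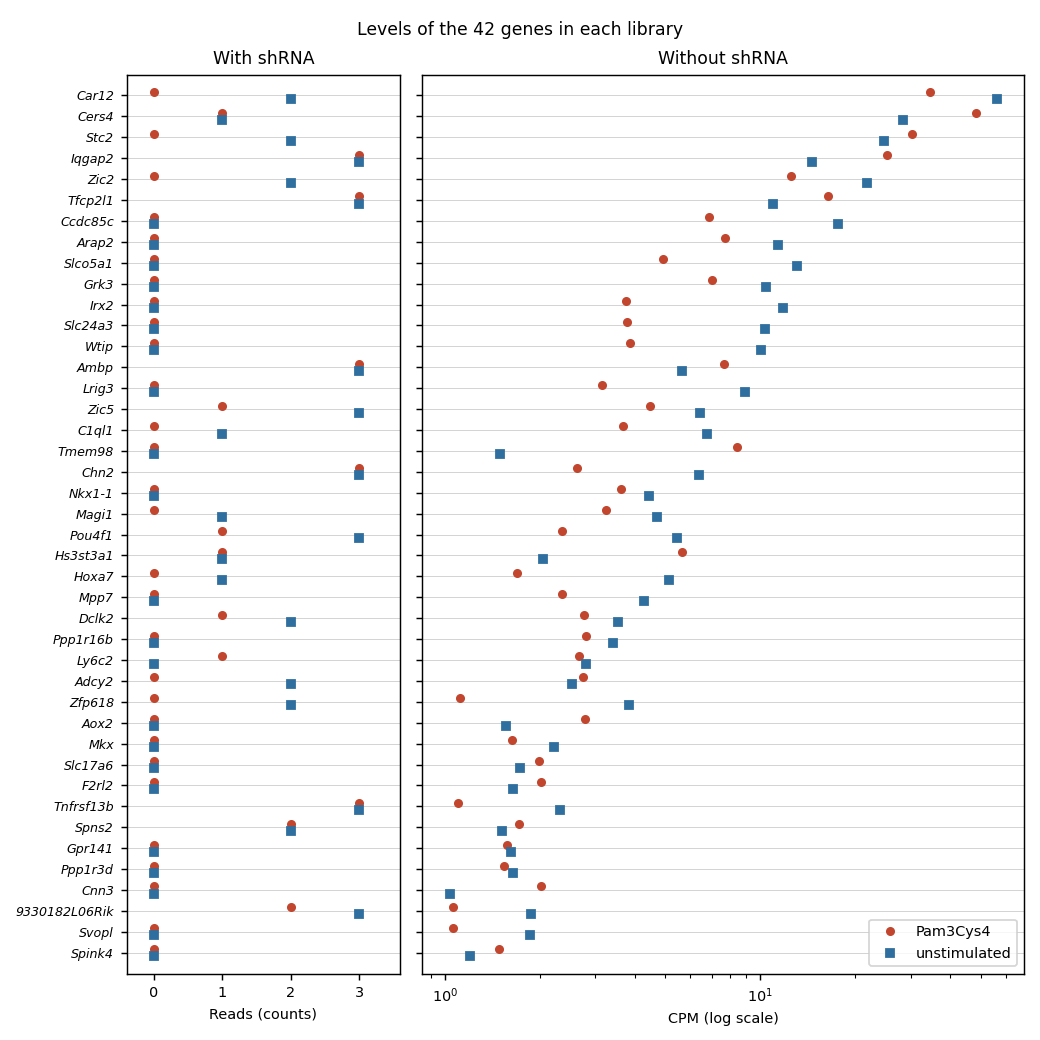
Reads with shRNA (left, counts) and CPM without shRNA (right, log scale) for each of the 42 genes, 1 point per library, circles for Pam3Cys4 and squares for unstimulated cells. The left panel shows the upper bound of 3 reads that chose the genes, and the right panel shows the spread from about 1 CPM to 56.3 CPM, with Tmem98 the gene whose 2 points lie farthest apart.

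The ratio after Pam3Cys4 without shRNA was not used to choose the genes, but both libraries that form it had to reach 1 CPM. Genes under that bound in either library could not enter, however large their change. The coding genes set beside the 42 passed the same bound. A gene counted as apart when its ratio of scaled reads reached 2 or 0.5 and the exact 95% counting interval excluded 1. By this measure 4 of the 42 genes (9.52%) were at least 2-fold higher after Pam3Cys4, against 6.39% of all coding genes with 1 CPM in both libraries. At least 2-fold lower were 10 genes (23.8%), against 6.44% of all such coding genes. The other 28 genes were on neither side, and for 11 genes the interval included 1. The median log2 ratio was -0.30 (range -1.60 to 2.67), against -0.01 over all such coding genes, and 59.5% of the 42 genes lay below 0, against 51.2% of all.

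Of the 42 genes, 35 had a mean under 10 CPM without shRNA, of which 4 (11.4%) were higher by 2-fold or more after Pam3Cys4 and 9 (25.7%) lower. Over all coding genes with a mean under 10 CPM the shares were 6.76% higher and 9.52% lower, and the median log2 ratio was -0.07, against -0.34 for the 35. With plain library totals in place of TMM factors the median over all coding genes moved to -0.19 and that of the 42 genes to -0.48. Cnn3 and Aox2 then no longer reached 2-fold. Tnfrsf13b, at a ratio of 0.472, joined the genes at least 2-fold lower, which then numbered 11. Where the interval bound itself had to pass 2-fold, Tmem98 and Hs3st3a1 remained among the higher genes, and Zfp618, Irx2, Hoxa7, Lrig3, Slc24a3 and Slco5a1 among the lower. The role groups below were made with the members in view, and the shares over all coding genes stand beside their counts only as a background.

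**Figure D2:**
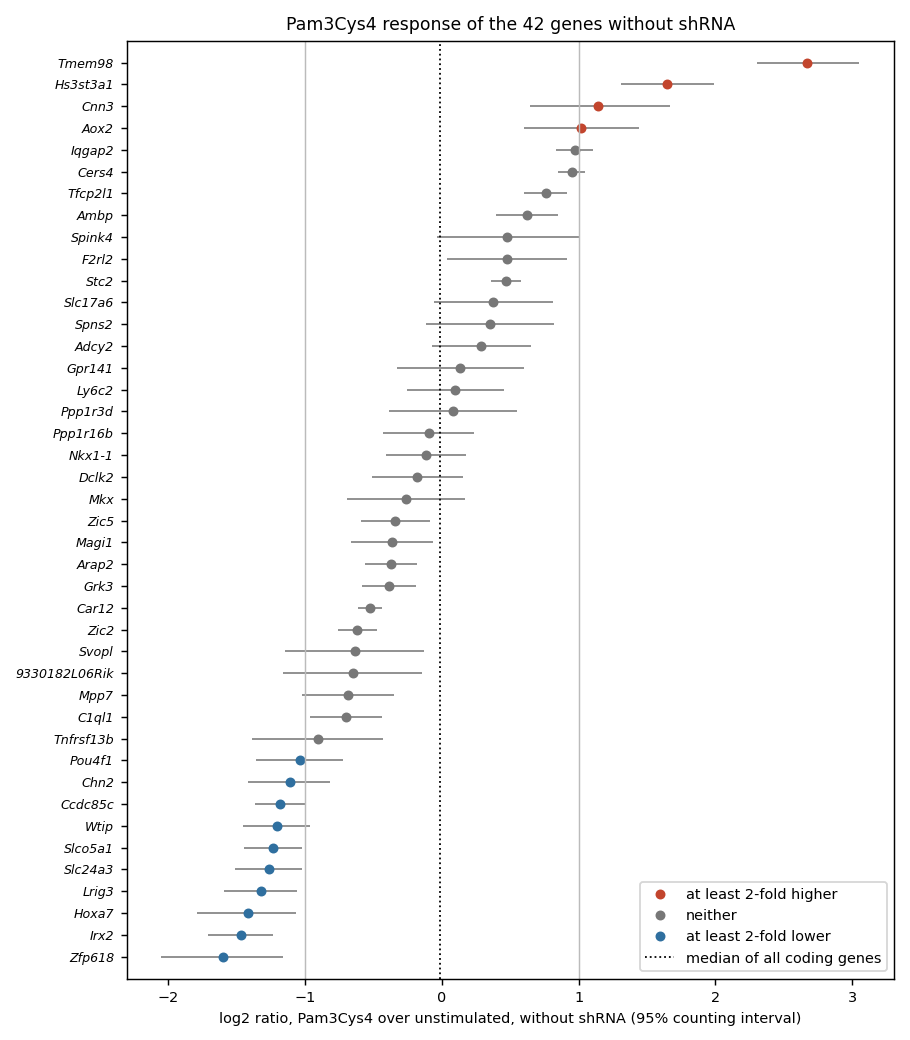
log2 ratio of scaled reads, Pam3Cys4 over unstimulated, without shRNA, for each of the 42 genes, with exact 95% counting intervals; grey lines stand at 2-fold and the dotted line at the median of all coding genes with 1 CPM in both libraries. Tmem98 stands alone at 2.67, and the 10 genes at the lower end include 4 transcription factors.

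Promoters of 5 genes are shown because they carry the ends of the response and of the level range: Tmem98 and Hs3st3a1 with the largest ratios after Pam3Cys4, Zfp618 and Irx2 with the smallest, and Car12 with the highest mean level. They are RefSeq sequences of build GRCm38.p6, 250 bases before to 50 after the annotated start, 5′ to 3′, all from the plus strand, with CpG dinucleotides in capitals. Their positions are chr11:80810116-80810415 for Tmem98, chr11:64435082-64435381 for Hs3st3a1, chr4:62965317-62965616 for Zfp618, chr13:72628570-72628869 for Irx2 and chr9:66713436-66713735 for Car12.
Tmem98: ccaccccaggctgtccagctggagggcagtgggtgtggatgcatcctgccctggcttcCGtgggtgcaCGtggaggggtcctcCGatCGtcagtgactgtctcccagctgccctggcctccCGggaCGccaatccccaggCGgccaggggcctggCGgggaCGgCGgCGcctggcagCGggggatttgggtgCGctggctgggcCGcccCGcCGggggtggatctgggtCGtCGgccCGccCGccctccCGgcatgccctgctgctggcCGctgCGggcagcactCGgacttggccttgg
Hs3st3a1: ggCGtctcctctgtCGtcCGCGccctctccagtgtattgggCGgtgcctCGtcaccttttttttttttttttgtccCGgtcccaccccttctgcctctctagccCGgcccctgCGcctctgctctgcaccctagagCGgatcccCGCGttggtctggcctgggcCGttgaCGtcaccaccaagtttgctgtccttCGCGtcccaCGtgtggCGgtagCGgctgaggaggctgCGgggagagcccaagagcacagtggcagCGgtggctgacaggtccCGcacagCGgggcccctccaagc
Zfp618: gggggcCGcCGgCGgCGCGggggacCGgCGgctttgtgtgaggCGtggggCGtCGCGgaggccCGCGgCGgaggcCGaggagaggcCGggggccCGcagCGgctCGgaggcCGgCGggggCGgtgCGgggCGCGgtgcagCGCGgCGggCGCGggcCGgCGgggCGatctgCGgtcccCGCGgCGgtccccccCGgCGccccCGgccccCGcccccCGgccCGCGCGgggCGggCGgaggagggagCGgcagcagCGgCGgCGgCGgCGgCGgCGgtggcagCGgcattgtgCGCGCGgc
Irx2: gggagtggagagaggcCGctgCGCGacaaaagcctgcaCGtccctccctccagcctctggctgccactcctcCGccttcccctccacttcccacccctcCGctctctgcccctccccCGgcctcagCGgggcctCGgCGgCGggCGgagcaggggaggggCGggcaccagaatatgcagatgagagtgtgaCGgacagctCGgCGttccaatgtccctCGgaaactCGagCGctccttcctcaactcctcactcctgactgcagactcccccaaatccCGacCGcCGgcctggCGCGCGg
Car12: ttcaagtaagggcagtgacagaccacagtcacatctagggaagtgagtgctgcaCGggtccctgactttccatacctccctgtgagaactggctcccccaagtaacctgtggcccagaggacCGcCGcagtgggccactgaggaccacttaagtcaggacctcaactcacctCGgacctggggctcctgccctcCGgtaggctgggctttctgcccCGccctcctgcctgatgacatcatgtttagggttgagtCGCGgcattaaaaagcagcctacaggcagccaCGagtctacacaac

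The 5 promoters hold 24, 23, 59, 25 and 9 CpG dinucleotides in the order shown, and the one of Zfp618 consists of G or C at 88.0% of its bases. Promoters were found for 34 of the 42 genes. Their median was 23.5 CpG, close to the 22 of the 7979 coding genes with a promoter and 1 CPM in both libraries without shRNA, but the spread was wider. The middle 50% ran from 7.25 to 38.5 CpG in the genes read only without shRNA, against 15 to 29 in the coding genes overall. At least 10 CpG were present in 21 of the 34 promoters (61.8%), against 86.6% in the coding genes overall. The extremes were Ly6c2 with 0 CpG and Zfp618 with 59. The median share of G and C was 65.0%, against 61.3%.

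**Figure D3:**
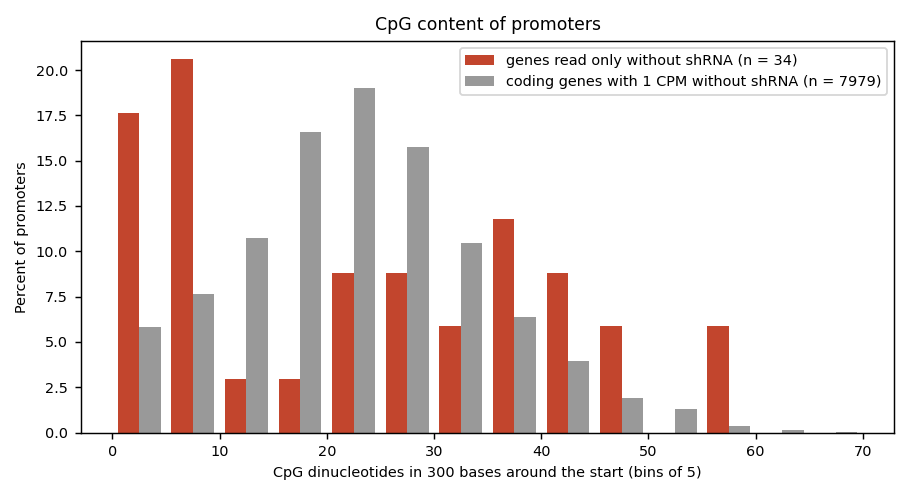
Percent of promoters by number of CpG dinucleotides in 300 bases around the annotated start, in bins of 5, for 34 of the genes read only without shRNA and for 7979 coding genes with 1 CPM in both libraries without shRNA. The genes read only without shRNA are spread from under 10 to above 35 CpG. Others lie between, among them Tfcp2l1 at 21 and Hs3st3a1 at 23 CpG, near the 22 CpG at which the coding genes overall have their median.

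Short motifs were searched on both strands of these 34 promoters as literal letters. GAGGAAG, a core of ETS-type sites, was in 12 of them (35.3%), Irx2 and Stc2 included, against 13.7% of the background promoters and 13.5% of all 27025 promoters. TGANTCA, the AP-1 letters, was in 2 (5.88%), Arap2 and F2rl2, against 4.60% and 7.93%. TGACGTCA, the full cyclic AMP response element, was in 1 (2.94%), Hs3st3a1, against 3.52% and 1.88%. TATAAA was in 2 (5.88%), Gpr141 and Tfcp2l1, against 6.17% and 14.2%. These are matches of letters only.

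The 9 transcription factors were mostly developmental regulators, and 4 of them were at least 2-fold lower after Pam3Cys4 (6.44% of all coding genes) while none was at least 2-fold higher (6.39%). Zic2, a zinc finger factor of the early forebrain, had 0 and 2 reads with shRNA (Pam3Cys4 and unstimulated), against 651 and 1031 reads without. Its ratio after Pam3Cys4 was 0.652 (95% counting interval 0.590 to 0.719). Zic5, a related factor that lies beside Zic2, had 1 and 3 reads with shRNA, against 233 and 304 without, a ratio of 0.791 (0.664 to 0.941). Both Zic genes were thus lower after Pam3Cys4 by less than 2-fold, with intervals below 1.

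Irx2, an Iroquois homeobox factor, had no reads in either library with shRNA, against 195 reads after Pam3Cys4 and 557 unstimulated without shRNA. It was 2.77-fold lower after Pam3Cys4 (2.35 to 3.28). Hoxa7, a homeobox factor of axial patterning, had 0 and 1 reads with shRNA, against 88 and 243 without, and was 2.68-fold lower (2.09 to 3.46). Zfp618, a zinc finger protein, had 0 and 2 reads with shRNA, against 58 and 181 without, and was 3.02-fold lower (2.24 to 4.14), the smallest ratio among the 42. In all 3 genes the library stimulated with Pam3Cys4 was the lower one without shRNA.

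Pou4f1, a factor of sensory neurons, was 2.05-fold lower after Pam3Cys4 (1.65 to 2.56). Tfcp2l1, a CP2-family factor of kidney and pluripotent cells, went the other way, with 3 reads in both libraries with shRNA, against 849 reads after Pam3Cys4 and 518 unstimulated without shRNA, a ratio of 1.69 (1.51 to 1.89). Nkx1-1, a homeobox gene, had a ratio of 0.924 (0.755 to 1.13), and Mkx, a homeobox factor of tendon, 0.835 (0.620 to 1.12). For Nkx1-1 and Mkx the interval included 1.

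Among the 7 enzymes, 2 were at least 2-fold higher after Pam3Cys4 (6.39% of all coding genes), Aox2 only with TMM or DESeq2 scaling, and none at least 2-fold lower (6.44%). Car12, a membrane carbonic anhydrase that interconverts carbon dioxide and bicarbonate outside the cell, had the highest mean CPM of all 42 genes. It had 0 and 2 reads with shRNA, against 1799 and 2667 without, and its ratio after Pam3Cys4 was 0.696 (0.655 to 0.739). Without shRNA the stimulated library was thus the lower one.

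Cers4, a ceramide synthase, had 1 read in each library with shRNA, against 2510 reads after Pam3Cys4 and 1342 unstimulated without shRNA. Its ratio after Pam3Cys4 was 1.93 (1.81 to 2.06), just short of 2-fold. Hs3st3a1, which adds 3-O-sulfate groups to heparan sulfate, also had 1 read in each library with shRNA, against 294 and 97 without, and was 3.13-fold higher after Pam3Cys4 (2.48 to 3.98). Aox2, an aldehyde oxidase, had no reads with shRNA, against 145 and 74 without, and was 2.02-fold higher (1.52 to 2.71). Both of these enzymes and Cers4 had more reads in the stimulated than in the unstimulated library without shRNA.

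Grk3, a kinase that desensitises G protein-coupled receptors, had no reads with shRNA, against 365 reads after Pam3Cys4 and 492 unstimulated without shRNA, a ratio of 0.766 (0.667 to 0.878). Adcy2, an adenylyl cyclase that makes cyclic AMP, had a ratio of 1.22 (0.951 to 1.57), and Dclk2, a microtubule-associated kinase, 0.884 (0.702 to 1.11). The last 2 had intervals that include 1.

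Of the 8 scaffold, GTPase-regulating or cytoskeletal proteins, 1 was at least 2-fold higher after Pam3Cys4 (6.39% of all coding genes) and 3 at least 2-fold lower (6.44%), and none of these 4 passed with the stricter bound. Iqgap2, a scaffold for the small GTPases Rac1 and Cdc42, had 3 reads in both libraries with shRNA, against 1315 reads after Pam3Cys4 and 692 unstimulated without shRNA, a ratio of 1.96 (1.79 to 2.15). Arap2, which regulates small GTPases, had no reads with shRNA, against 402 and 537 without, a ratio of 0.772 (0.677 to 0.881). Ccdc85c, a coiled-coil protein of apical junctions, had no reads with shRNA, against 358 and 837 without, and was 2.27-fold lower after Pam3Cys4 (1.9996 to 2.57). The genes of this group with the highest mean CPM, Iqgap2 and then Ccdc85c, thus stood on opposite sides of 1.

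Wtip, a LIM-domain protein of junctions, had no reads with shRNA, against 200 reads after Pam3Cys4 and 476 unstimulated without shRNA, and was 2.31-fold lower (1.95 to 2.73). Chn2, the Rac-inactivating beta-chimaerin, was 2.16-fold lower (1.76 to 2.66). Cnn3, an actin-binding calponin, had no reads with shRNA, against 105 and 49 without, and was 2.21-fold higher (1.56 to 3.17). Magi1 and Mpp7, both scaffolds of cell polarity and junctions, had ratios of 0.777 (0.632 to 0.954) and 0.623 (0.494 to 0.784). Of these 5 genes only Cnn3 was higher after Pam3Cys4.

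Among the 5 transporters 2 were at least 2-fold lower after Pam3Cys4 (6.44% of all coding genes) and none at least 2-fold higher (6.39%). Slco5a1, of the organic anion transporter family, had no reads with shRNA, against 255 and 618 without (Pam3Cys4 and unstimulated), and was 2.35-fold lower after Pam3Cys4 (2.03 to 2.73). Slc24a3, a potassium-dependent sodium-calcium exchanger, had no reads with shRNA, against 197 and 489 without, and was 2.41-fold lower (2.03 to 2.85). Slc17a6, a vesicular glutamate transporter, had a ratio of 1.30 (0.960 to 1.75), and Spns2, a sphingolipid exporter, 1.28 (0.924 to 1.77). Svopl, a relative of synaptic vesicle transporters, had a ratio of 0.645 (0.452 to 0.913). The direction thus differed within the transporters, with both genes past 2-fold on the lower side.

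The 5 receptors and surface proteins held 1 gene at least 2-fold lower after Pam3Cys4 (6.44% of all coding genes), Lrig3, a leucine-rich repeat membrane protein. It had no reads with shRNA, against 164 and 424 without (Pam3Cys4 and unstimulated), a 2.51-fold difference (2.09 to 3.02). F2rl2, the protease-activated receptor PAR3, had no reads with shRNA, against 105 and 78 without, a ratio of 1.39 (1.03 to 1.89). Tnfrsf13b, the TACI receptor known from B cells, had a ratio of 0.535 (0.381 to 0.743). The orphan receptor Gpr141 had a ratio of 1.10 (0.795 to 1.52). Ly6c2, a surface marker of monocytes, had a ratio of 1.07 (0.838 to 1.37). Its near-identical copy Ly6c1 had no reads with shRNA, against 9 and 3 without, and the split of reads between the 2 genes is uncertain.

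None of the 4 secreted proteins was 2-fold apart after Pam3Cys4. Stc2, a stanniocalcin glycohormone, had 0 and 2 reads with shRNA (Pam3Cys4 and unstimulated), against 1570 and 1168 without, a ratio of 1.39 (1.285 to 1.497). Ambp, the precursor of the protease inhibitor bikunin and of alpha-1-microglobulin, known from liver, had 3 reads in both libraries with shRNA, against 400 and 268 without, a ratio of 1.54 (1.316 to 1.805). C1ql1, a C1q-like synaptic protein, had a ratio of 0.616 (0.512 to 0.739), and Spink4, a Kazal-type inhibitor of goblet cells, 1.39 (0.977 to 1.999). Stc2 and Ambp were thus higher after Pam3Cys4 and C1ql1 lower, all by less than 2-fold.

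The regulatory subunits of protein phosphatase 1, Ppp1r16b and the glycogen-targeting Ppp1r3d, had ratios of 0.936 (0.743 to 1.18) and 1.06 (0.765 to 1.46), with 0 reads in both libraries with shRNA. Tmem98, a transmembrane protein, had the largest ratio of all 42 genes. It had no reads with shRNA, against 438 reads after Pam3Cys4 and 71 unstimulated without shRNA, and was 6.37-fold higher after Pam3Cys4 (4.94 to 8.30). 9330182L06Rik had a ratio of 0.638 (0.447 to 0.902).

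The genes were spread over 16 chromosomes, with none on the X chromosome. Chromosome 11 held 6, Stc2, C1ql1, Tmem98, Hs3st3a1, Tnfrsf13b and Spns2, which is 14.3% of the 42 genes, where 8.75% of the coding genes with 1 CPM without shRNA lie. Chromosome 13 held 5, Iqgap2, F2rl2, Irx2, Adcy2 and Gpr141 (11.9%, against 3.55%). In the order of all coding genes of the annotation, 6 of the 42 (14.3%) stood directly beside another of them, as the 3 pairs Zic5 and Zic2 on chromosome 14, Zfp618 and Ambp on chromosome 4, and Iqgap2 and F2rl2 on chromosome 13. For all coding genes with 1 CPM in both libraries without shRNA, a far denser set, the share was 84.4%, and for the 32 genes of the exchanged rule it was 0.

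The pairs did not share a direction after Pam3Cys4 throughout. Zic2 and Zic5 were both lower and Iqgap2 and F2rl2 both higher, while Zfp618 was 3.02-fold lower and its neighbour Ambp 1.54-fold higher. F2rl2 lies within Iqgap2 on the opposite strand, and whether reads were counted by strand is not given in the sources used here, so their 2 counts are uncertain as separate measurements. With up to 5 genes allowed between them, Mkx and Mpp7 on chromosome 18 joined, and Armc4 between them had 0 reads in every library except 2 in unstimulated cells without shRNA. Spns2 overlaps Mybbp1a, a nucleolar gene with 44540 and 45154 reads with shRNA (Pam3Cys4 and unstimulated), against 46358 and 41188 without.

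The coding genes next to the 42 are described here without those that are themselves among the 42. They are thus genes that did not meet the rule, while the shares over all coding genes include the 42. There were 77 such neighbours, of which 22 had no read in any library and 33 had at least 1 CPM in all 4. At least 1 neighbour with 1 CPM in all 4 libraries stood beside 28 of the 42 genes. The homeobox genes Irx1 and Irx4, on either side of Irx2, had no read in any library. Clasp1 beside Tfcp2l1, a microtubule-binding protein, had 5371 and 5863 reads with shRNA, against 5088 and 6184 without.

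After Pam3Cys4, 36 neighbours reached 1 CPM in at least 1 library, and 2 of these (5.56%) were at least 2-fold higher with shRNA, against 10.4% of all coding genes so measured, while 4 (11.1%) were at least 2-fold lower, against 7.44%. Unstimulated, 0 of 38 were at least 2-fold higher with shRNA, against 8.16%, and 6 (15.8%) were at least 2-fold lower, against 6.65%. Among the lower ones, Fam217b beside Ppp1r3d had 1 and 7 reads with shRNA (Pam3Cys4 and unstimulated), against 353 and 535 without. Spns3 beside Spns2, its relative, had 1 and 4 reads with shRNA, against 51 and 61 without. Fam217b lay outside the count bound of the rule, and Spns3 outside both bounds.

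Myo1d, an unconventional myosin beside Tmem98, had 178 and 191 reads with shRNA (Pam3Cys4 and unstimulated), against 3895 and 360 without. Like Tmem98 it had many more reads after Pam3Cys4 without shRNA, an 11.2-fold ratio. Cdk5r1, the activator of the neuronal kinase Cdk5 and the next gene after Myo1d, had 119 and 116 reads with shRNA, against 1405 and 2428 without, and was thus not higher after Pam3Cys4. Hs3st3b1, the closest relative of Hs3st3a1 and separated from it only by Cox10, had 4 and 2 reads with shRNA, against 1511 and 1715 without. Cox10 itself had 3940 and 4700 reads with shRNA, against 3030 and 3762 without. Cox10 was thus read in all 4 libraries, between a pair of genes with 4 reads or fewer in each library with shRNA.

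**Figure D4:**
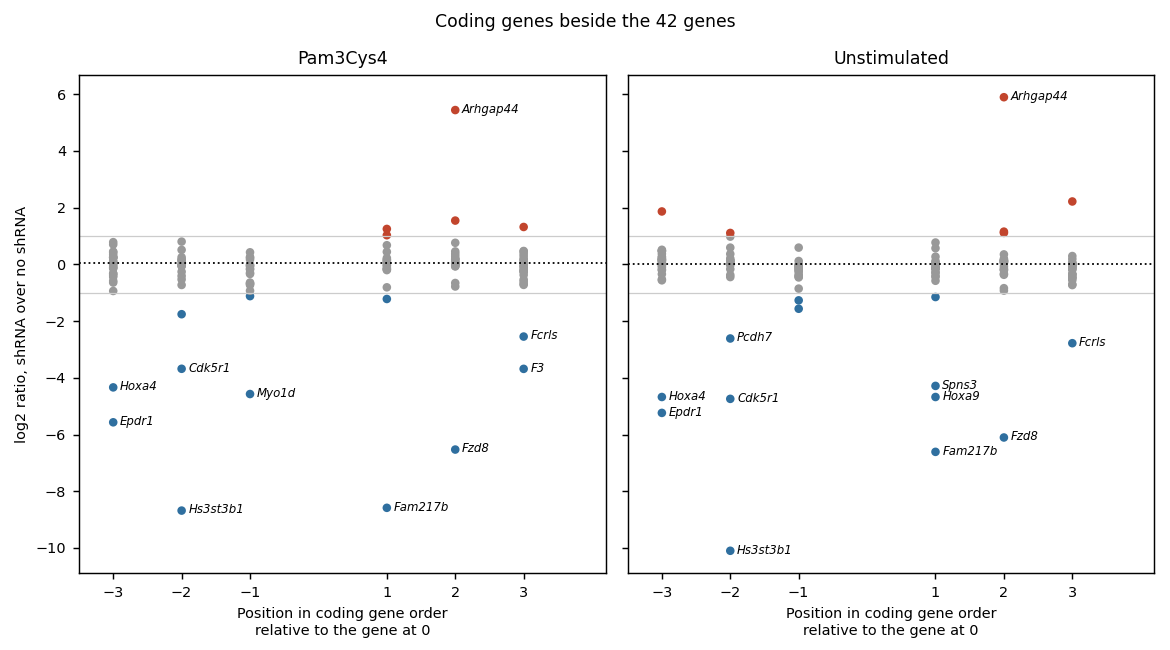
log2 ratio of scaled reads, shRNA over no shRNA, after Pam3Cys4 (left) and unstimulated (right), for coding genes up to 3 positions from each of the 42 genes that reached 1 CPM in at least 1 of the 2 libraries; blue and red points are at least 2-fold lower and higher, dotted lines mark the median of all coding genes, and Hoxa9 (right) and Epdr1 (left), with no read with shRNA there, are drawn at the limit of 3 reads. The 42 genes themselves are not drawn. Most points lie near 0, and the named points lie more than 2.5 from it, among them Hs3st3b1, Fam217b and Fzd8 on the lower side.

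Hoxa7 lies in the Hoxa cluster, of which 10 genes, not the whole cluster, were analysed here. Hoxa4 had 5 and 9 reads with shRNA (Pam3Cys4 and unstimulated), against 93 and 180 without, and Hoxa9 had none with shRNA, against 37 and 60 without. Hoxa11 had no read in any library. Unstimulated, 2 of these 10 genes other than Hoxa7 reached 1 CPM in a library. Both were at least 2-fold lower with shRNA (6.65% of all coding genes). Hoxa4 was lower by 25.6-fold, and Hoxa9 by 25.6-fold with its 0 reads set to 3.

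**Figure D5:**
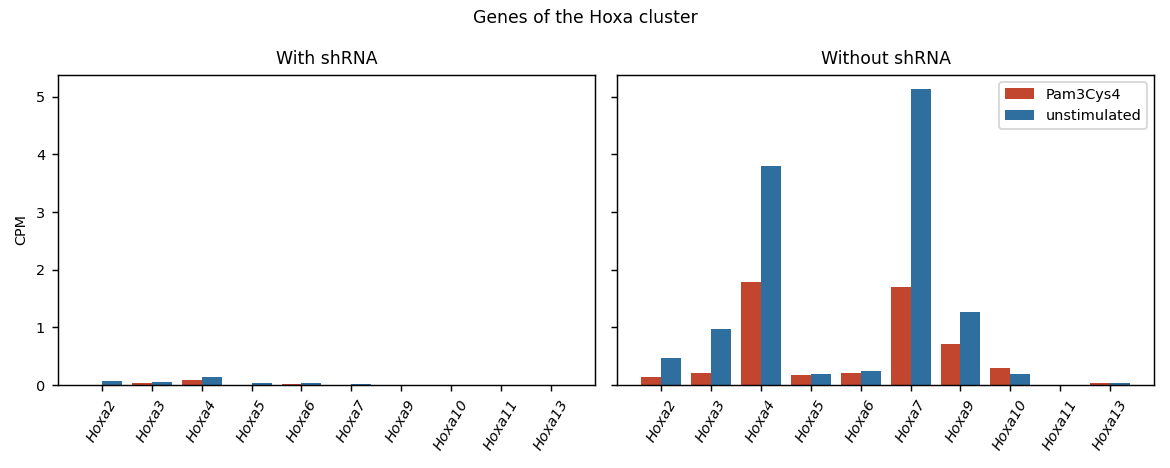
CPM of the 10 analysed Hoxa genes with shRNA (left) and without shRNA (right) on one scale, 1 bar per library. Without shRNA, Hoxa4, Hoxa7 and Hoxa9 have the tallest unstimulated bars, Hoxa7 at 5.13 CPM, and with shRNA no bar exceeds the 0.137 CPM of Hoxa4.

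Close relatives were listed for 28 of the 42 genes. For 13 of these, at least 1 relative had 1 CPM in both libraries with shRNA. Cers2, the most abundant ceramide synthase, had 17072 and 20060 reads with shRNA (Pam3Cys4 and unstimulated), against 19174 and 14966 without, and was 85.9 RPKM beside the 2.31 RPKM of Cers4 in unstimulated cells without shRNA. Grk2 had 45974 and 59568 reads with shRNA, against 44192 and 55003 without, and stood at 259 RPKM beside 1.19 RPKM for Grk3. Iqgap1 had 78717 and 72113 reads with shRNA, against 71288 and 39945 without, and stood at 51.0 RPKM beside 2.53 RPKM for Iqgap2. In these 3 families the gene read only without shRNA thus stood below the most abundant relative per length.

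The highest RPKM of the family in unstimulated cells without shRNA belonged to 13 of the 28 genes. These were Zic2 and Zic5 (each against listed Zic genes outside the set), Irx2, Pou4f1, Aox2, Dclk2, Chn2, Magi1, Cnn3, Ccdc85c, F2rl2, Stc2 and C1ql1. Ccdc85c was compared with 1 relative only, as 2 of the 3 listed genes of its family, itself included, could be matched. Zic1 and Zic4 had no read in any library, and neither had Stc1, the other stanniocalcin. Of the 105 listed relatives, 31 were measured after Pam3Cys4, with 2 (6.45%) higher and 6 (19.4%) lower with shRNA by 2-fold or more, where the shares over all coding genes were 10.4% and 7.44%. Unstimulated, 34 were measured, 4 (11.8%) higher and 9 (26.5%) lower, where they were 8.16% and 6.65%.

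Of the 7 gene lists examined beside the set, with 118 genes, 1 held a member, the carbonic anhydrases with Car12. After Pam3Cys4, 4 other carbonic anhydrases were measured, with 1 higher and 2 lower by 2-fold or more with shRNA. Unstimulated these were 2 and 2 of 4. Car2, the abundant cytosolic enzyme, had 11 and 8 reads with shRNA (Pam3Cys4 and unstimulated), against 19146 and 17349 without. Car9, a membrane enzyme like Car12, had 62 and 89 reads with shRNA, against 142 and 189 without. Car13, a cytosolic enzyme, had 3297 and 1135 reads with shRNA, against 1858 and 380 without, and the mitochondrial Car5b had 310 and 318 reads with shRNA, against 5 and 9 without. The carbonic anhydrases thus went both ways with shRNA. The other 6 lists, alternative activation, Toll-like receptor accessory proteins, protease inhibitors, C-type lectin and scavenger receptors, leukocyte immunoglobulin-like and Fc receptors, and osteoclast and fusion genes, held none of the 42 genes. The 42 are 0.423% of the expressed coding genes, and genes of these lists could still differ with shRNA. Unstimulated, 4 of 8 measured alternative activation genes were at least 2-fold lower and 1 higher. Of 8 accessory protein genes 0 were lower and 1 higher, against 6.65% lower and 8.16% higher of all coding genes. None of the 7 lists holds the coding gene that the rule left out, so that gene is in none of these list counts.

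Near the limits of the rule, Cnn3 at 1.03 CPM and Svopl and 9330182L06Rik at 1.06 CPM were just inside the CPM bound by their lower library, and Tfpi at 0.971, Synpo at 0.9497 and Degs2 at 0.886 CPM just outside. Tnfrsf13b, Chn2 and Ambp, with 3 reads in both libraries with shRNA, were just inside the count bound. Epdr1, Trib2 and C1qtnf6, with 0 reads after Pam3Cys4 and 4 unstimulated with shRNA, were just outside. The 2 noncoding genes with counts inside both bounds were Hectd2os, with 0 and 1 reads with shRNA (Pam3Cys4 and unstimulated), against 531 and 323 without, and B930095G15Rik, with 1 and 0 reads, against 88 and 69.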

How the data were processed

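Libraries of mRNA were read at 50 bp, per the labels' protocols. The authors deposited whole-number read counts, 1 table per library. Per the submitters' processing notes, CASAVA 1.8, TopHat and HTSeq were used with NCBIM37, while for TopHat and HTSeq versions, annotation release and strand use the entry is not given in the sources used here. Rows that name no gene (32.5 to 34.4% of all totals) were left out. Alignments to several places alone made up 27.0 to 29.9%, so genes with close copies are undercounted.

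Of 37681 gene IDs, 32661 matched a symbol in GENCODE vM21 (GRCm38), which gave names, biotypes, gene order and exon lengths but no coordinates, since the builds differ. RPKM is CPM per kilobase of merged exon. Promoters came from RefSeq, the first listed start being used for 6 genes with several.

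Scaling used TMM factors of edgeR 4.0.16 (R 4.3.3), and ratios have exact 95% conditional binomial intervals (scipy 1.17.1). A count of 0 was set to 3 reads for ratios. With 1 library per group, and no label telling of separate cultures, no p-value was computed. DESeq2 1.42.0 size factors served as an alternative. The interval was tested on simulated data. The members, lists, motifs and thresholds were chosen with earlier results of these data known, and roles and the 26 family lists were assembled with the members in view. All members are named, with values in every library for the 12 with the highest mean CPM, for up to 8 per direction after Pam3Cys4 and for adjacent members. Neighbours and relatives named in the text were chosen after their values were seen, and some genes are not reported here.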

Additional observations from a re-analysis of the deposited data

How the results depend on the processing

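Of 31 alternatives computed, 21 left the result within 1.5 times or within the spread it started from, 10 moved it and 0 reversed it. The number of genes in the set, 42, follows its bounds: 21 genes had 0 reads in each library with shRNA, 27 had at most 1, 67 were found at 0.5 CPM and 27 at 2 CPM. The 4 genes at least 2-fold higher after Pam3Cys4 became 2, Tmem98 and Hs3st3a1, both with library totals and when the interval bound itself had to pass 2-fold. The 10 lower genes became 6 under that stricter bound, and 6 of the 21 genes with 0 reads with shRNA were lower (28.6%, against 23.8% of the 42). With up to 3 coding genes on each side, 13 of 119 measured neighbours (10.9%) were at least 2-fold lower with shRNA unstimulated. This stood in place of 6 of 38 (15.8%), against 6.65% of all coding genes. After Pam3Cys4 it was 12 of 116 (10.3%) in place of 4 of 36 (11.1%), against 7.44%. In the wider window 6 (5.04%) were at least 2-fold higher unstimulated and 5 (4.31%) after Pam3Cys4, against 8.16% and 10.4%. The share of coding genes apart after Pam3Cys4 was 12.8%, and 10.7 to 16.3% in the alternatives; the background of genes with a mean under 10 CPM, the 3-gene window and the removal of overlapping genes were chosen after seeing the data. No paired analysis was possible because each group has 1 library, and for the same reason no library could be left out. Depth limits the ratios of the lowest genes: Cnn3 unstimulated without shRNA rests on 49 reads.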
